A study of Mus musculus with 21 samples.

Results

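Neurotrophins are small secreted growth factors that keep neurons alive and strengthen synapses. They are made as longer precursors, and the precursor and the mature factor act through different receptors: mature brain-derived neurotrophic factor (BDNF) and neurotrophin-3 signal through the receptor tyrosine kinases TrkB and TrkC, whereas the precursors bind the death-domain receptor p75NTR together with sortilin or a SorCS protein. In the forebrain, BDNF and TrkB are best known for their part in synaptic plasticity and memory, and p75NTR marks the cholinergic neurons of the basal forebrain.

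The genes described here are those of the ligands and receptors of this system, chosen by name: Bdnf and Ntf3 (the ligands), Ntrk2 and Ntrk3 (TrkB and TrkC), Ngfr (p75NTR), and Sort1 and Sorcs2 (sortilin and SorCS2). All 7 of the 7 listed genes were among the 16318 genes of the table, and all 7 passed the filter on low counts that left 16303 genes. RNA had been taken from the whole brains of 21 SAMP8 mice, a naturally occurring senescence-accelerated line used as a model of sporadic Alzheimer's disease; no mouse of another strain was included. From 4 months of age, mice received the peptide HsTX1[R14A], a blocker of the potassium channel Kv1.3, at 1 mg/kg under the skin every 2 days for 8 weeks, or phosphate-buffered saline (PBS) on the same schedule, so that all were 6 months old at the end. There were 6 female and 6 male PBS-treated mice, and 3 female and 6 male HsTX1[R14A]-treated mice, with 1 library each, and mice of either treatment shared cages. Total counts ran from 14917174 to 47613792 per library. The sex labels matched the sex-linked genes in 21 of 21 libraries. Mouse numbers below are those of the labels.

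The counts are summed per gene, so they merge transcripts that start or end at different places. Bdnf lies on chr2:109674700-109727007 of GRCm38, plus strand, with 11 annotated transcripts, and RefSeq gives it 7 start sites. Ntrk2 lies on chr13:58806569-59133970, plus strand, with 10 transcripts that include both the full-length TrkB kinase and truncated forms without the kinase domain, and these forms cannot be told apart here. Ntf3 is on chr6:126101412-126166910 (minus strand), Ntrk3 on chr7:78175959-78738012 (minus), Ngfr on chr11:95568818-95587735 (minus), Sort1 on chr3:108284082-108361511 (plus) and Sorcs2 on chr5:36017180-36398139 (minus). Exons of the antisense gene Gm45346 overlap those of Bdnf over 896 bases, and exons of Gm12523 overlap Sort1 over 338 bases. Whether the counting used strand is not given in the sources used here, so reads from these partners cannot be separated from Bdnf and Sort1.

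Of the 7 genes, 4 had a start site window in RefSeq (GRCm38.p6), namely Bdnf, Ntf3, Ntrk2 and Ngfr. Below are the 250 bases before the third Bdnf start site (chr2:109692186-109692435, plus strand) and before the Ngfr start site (chr11:95587699-95587948, minus strand). They are shown because Bdnf is a classical target of the cyclic AMP-responsive factor CREB, whose target genes are described further on, and because the Ngfr window had the most GC boxes of the windows searched. Capitals mark the core of the cyclic AMP response element (TGACG or, on the other strand, CGTCA) and GC boxes (GGGCGG or CCGCCC).
Bdnf: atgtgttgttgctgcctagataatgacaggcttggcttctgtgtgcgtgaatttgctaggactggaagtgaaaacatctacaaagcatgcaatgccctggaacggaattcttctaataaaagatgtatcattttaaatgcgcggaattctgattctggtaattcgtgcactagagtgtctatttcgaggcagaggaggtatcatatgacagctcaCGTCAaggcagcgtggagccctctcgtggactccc
Ngfr: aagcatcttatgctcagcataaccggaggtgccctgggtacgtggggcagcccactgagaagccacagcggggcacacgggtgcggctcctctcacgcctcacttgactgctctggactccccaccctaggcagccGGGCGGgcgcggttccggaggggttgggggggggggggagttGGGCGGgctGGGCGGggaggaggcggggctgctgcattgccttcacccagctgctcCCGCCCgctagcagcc
The Bdnf window held 1 core element, and the other windows of Bdnf and those of Ntf3, Ntrk2 and Ngfr held none. The Ngfr window held 4 GC boxes, and the Ntrk2 window held neither motif. Among 32851 RefSeq windows of the same length, 17.8% held the core element and 32.7% held a GC box, and the full palindrome TGACGTCA, in 1.55% of windows, was in no window of these genes. These matches are letters only, and binding was not measured.

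Levels were compared between genes as CPM (counts scaled by the TMM-corrected library total) per kilobase of the longest transcript, over all 21 mice. Ntrk2 had the highest level per kilobase (59.4 ± 11.3, SD), followed by Sort1 (45.8 ± 15.2). Bdnf (8.0 ± 1.7) and Sorcs2 (5.79 ± 2.90) were in the middle. Ntrk3 (2.12 ± 0.420), Ngfr (1.09 ± 0.491) and Ntf3 (0.719 ± 0.276) had the lowest levels. The receptors TrkB and sortilin therefore stood well above both ligands in these brains at the RNA level. Of the neighbors in this order, only Sort1 and Bdnf had ranges that did not overlap. Ntrk2 was above Sort1 in 20 of 21 mice, Sorcs2 above Ntrk3 in 20, Ntrk3 above Ngfr in 21 and Ngfr above Ntf3 in 17, whereas Bdnf was above Sorcs2 in 14. The middle of the order depended on the length used: with the mean length of the coding transcripts, Sorcs2 was at 11.7, Bdnf at 8.66 and Ntrk3 at 8.34 CPM per kilobase.

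The main comparison set the 9 HsTX1[R14A]-treated brains against the 12 PBS-treated ones, in an edgeR quasi-likelihood model with sex as a term. Sorcs2, Sort1 and Ntrk2 were higher in HsTX1[R14A]-treated mice, by 1.81-fold, 1.5-fold and 1.24-fold, and no gene of the group was lower. Ngfr, Ntrk3, Bdnf and Ntf3 did not pass the test. The count of 3 of 7 called in either direction stands beside 31.6% of all 16303 genes tested, and the 3 called higher stand beside 15.5%. No gene of the group had treatment groups whose ranges did not overlap, and over all genes tested 0.00613% were higher and 0.0123% lower without overlap. In bulk tissue a larger share of the cells that express a gene and more RNA per cell cannot be told apart.

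A property of the libraries moved with treatment and stands beside each of these results. For each library, the slope of its log2 CPM values (centered on each gene's mean over mice) on log2 transcript length was computed, so that a positive slope means that long transcripts read high in that library. The slope was -0.0764 ± 0.161 (SD, n = 12) in PBS-treated mice and 0.102 ± 0.119 (SD, n = 9) in HsTX1[R14A]-treated mice, with overlapping ranges. With this slope in the model, edgeR called 0 of 16303 genes at an adjusted p of at most 0.05, while 11.4% had an unadjusted p under 0.05. The part of the slope in the treatment differences cannot be told apart from treatment by these libraries alone, and the values of each gene are given with and without it.

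**Figure D1:**
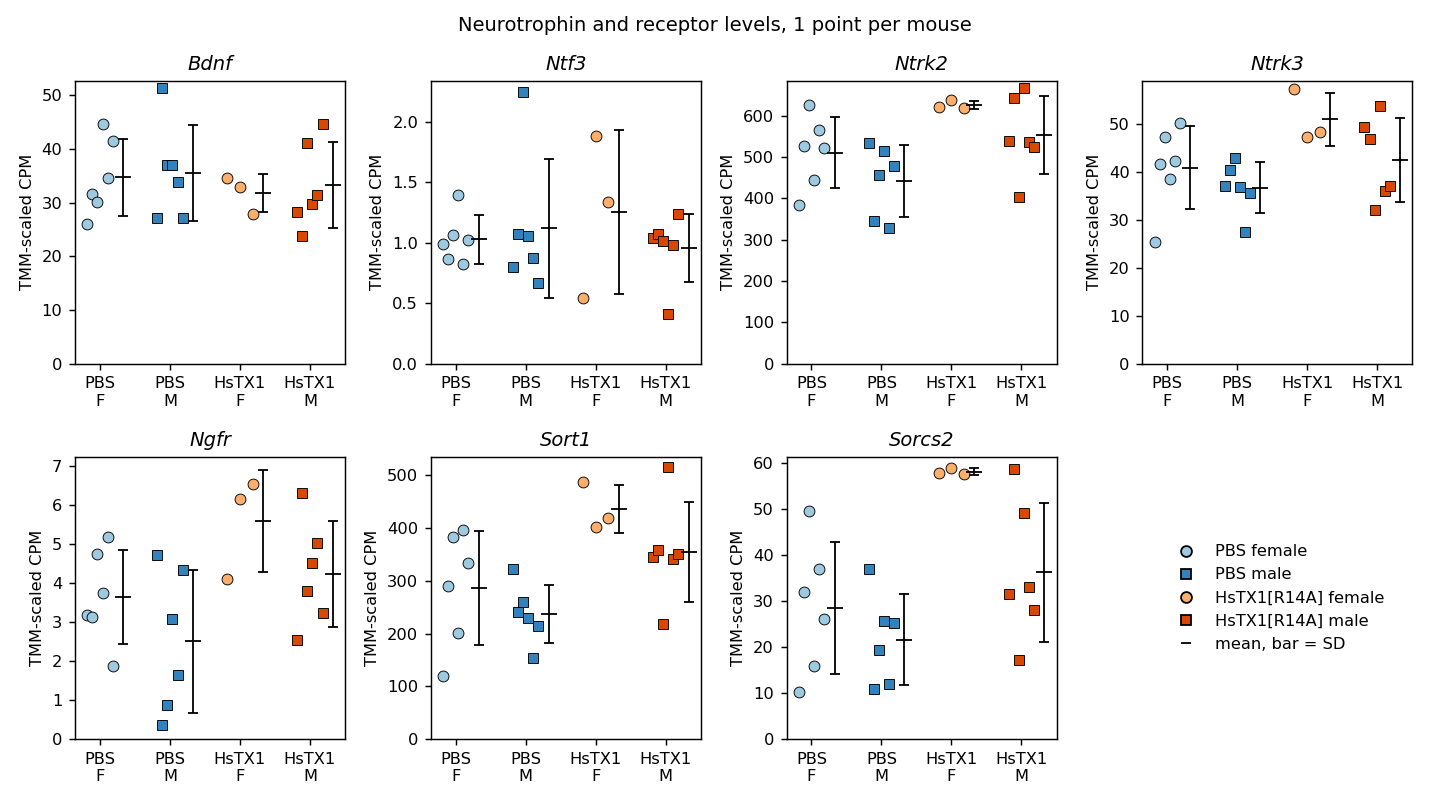
TMM-scaled CPM (y axis) of the 7 genes in each mouse by treatment and sex (x axis, F female, M male), with 1 point per mouse and the mean and SD of each group as a bar. The 3 HsTX1[R14A]-treated females lie between 57.7 and 58.9 CPM for Sorcs2, above all 6 PBS-treated females, while the male groups overlap.

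Bdnf, the ligand of TrkB and the most studied activity-dependent growth factor of the brain, ranged from 26 to 51.3 CPM in PBS-treated mice (median 34.2) and from 23.8 to 44.7 CPM in HsTX1[R14A]-treated mice (median 31.5). The ranges overlapped almost entirely, and 3 of 9 treated mice were above the PBS median. The log2 fold change was -0.11 ± 0.13 (SE), with an adjusted p of 0.510 by edgeR. The highest value was that of PBS male 101 and the lowest that of HsTX1[R14A] male 88. Adding the length slope gave a log2 fold change of -0.036.

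Ntf3, which encodes neurotrophin-3, the ligand of TrkC, was read at 7 to 71 counts per library, and it was the least abundant gene of the group. Its CPM ran from 0.666 to 2.25 in PBS-treated mice (median 1.01) and from 0.415 to 1.88 in HsTX1[R14A]-treated mice (median 1.04). Neither treatment was set apart, and the log2 fold change was 0.023 ± 0.23 (SE; edgeR, adjusted p = 0.945). The SE was larger than the change seen for Bdnf, so a difference of that size was not detectable.

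Ntrk2, which encodes TrkB and is expressed by neurons and, in its truncated form, by astrocytes, ranged from 328 to 626 CPM in PBS-treated mice (median 497) and from 404 to 667 CPM in HsTX1[R14A]-treated mice (median 619). The treated group lay higher, with 8 of 9 mice above the PBS median and 3 above the highest PBS value, while HsTX1[R14A] male 93 lay among the low PBS values. The log2 fold change was 0.31 ± 0.11 (SE), and the adjusted p was 0.0355 by edgeR. The call was lost in 9 of 21 fits that left out 1 mouse, with adjusted p up to 0.0682. Adding the length slope brought the log2 fold change to 0.0085 (edgeR, adjusted p = 0.971), and with the trend on length and GC content removed from each library it was -0.035.

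Ntrk3, which encodes TrkC, ranged from 25.5 to 50.3 CPM in PBS-treated mice (median 39.5) and from 32.1 to 57.5 CPM in HsTX1[R14A]-treated mice (median 47.4). The groups overlapped over most of their range, and 6 of 9 treated mice were above the PBS median. The log2 fold change was 0.25 ± 0.11 (SE) with an adjusted p of 0.0868 by edgeR. Adding the length slope to the model gave -0.080. Without HsTX1[R14A] male 93, edgeR gave 0.30 with an adjusted p of 0.0397. HsTX1[R14A] male 74 stood apart in the summed cerebellum markers (999 CPM against at most 478 in the other mice), and without it the log2 fold change of Ntrk3 was 0.23 (edgeR, adjusted p = 0.141).

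Ngfr, which encodes p75NTR, was the most variable gene of the group relative to its mean in PBS-treated mice. Its counts were low, at 11 to 166 per library in PBS-treated and 65 to 322 in HsTX1[R14A]-treated mice. It ranged from 0.357 to 5.18 CPM in PBS-treated mice (median 3.16) and from 2.54 to 6.54 CPM in HsTX1[R14A]-treated mice (median 4.50). The 2 lowest values were those of PBS males 101 and 82 (11 and 20 counts), and 4 of 12 PBS values were below the lowest treated one. Despite the largest shift of the group after Sorcs2 (log2 fold change 0.70 ± 0.31, SE), the adjusted p was 0.0841 by edgeR, and limma with voom gave 0.93 with an adjusted p of 0.0384, a setting that called 31.9% of all genes. Without PBS male 102, edgeR gave 0.85 with an adjusted p of 0.0392. The log2 fold change with the length slope added was 0.44 (edgeR, adjusted p = 0.645).

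Sort1 encodes sortilin, a sorting receptor that binds proneurotrophins and guides BDNF within the cell. Its values ran from 120 to 395 CPM in PBS-treated mice (median 250) and from 218 to 514 CPM in HsTX1[R14A]-treated mice (median 358). The treated group lay higher, with 8 of 9 mice above the PBS median and 4 above the highest PBS mouse, and all 3 treated females were above all 6 PBS females. Sort1 rose with a log2 fold change of 0.59 ± 0.18 (SE; edgeR, adjusted p = 0.0237) and was called in 21 of 21 fits that left out 1 mouse. The log2 fold change was 0.037 (edgeR, adjusted p = 0.899) after adding the length slope and 0.26 (edgeR, adjusted p = 0.0628) with the length and GC trend removed.

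Sorcs2 encodes SorCS2, a sortilin relative that partners p75NTR in the response to pro-BDNF and also traffics TrkB. It showed the largest difference of the group. PBS-treated mice ranged from 10.2 to 49.6 CPM (median 25.4) and HsTX1[R14A]-treated mice from 17.1 to 58.9 CPM (median 49.1). Again 8 of 9 treated mice were above the PBS median, 4 were above the highest PBS mouse, and HsTX1[R14A] male 93 was the low one. Sorcs2 rose with a log2 fold change of 0.86 ± 0.26 (SE; edgeR, adjusted p = 0.0235), which placed it at the 98.7th percentile of the fold changes of all genes, and it was called in 21 of 21 fits that left out 1 mouse. It was the only gene of the group still called with the length and GC trend removed (0.44; edgeR, adjusted p = 0.0375, with 15.3% of all genes called), and adding the length slope put it at 0.076 (edgeR, adjusted p = 0.868).

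**Figure D2:**
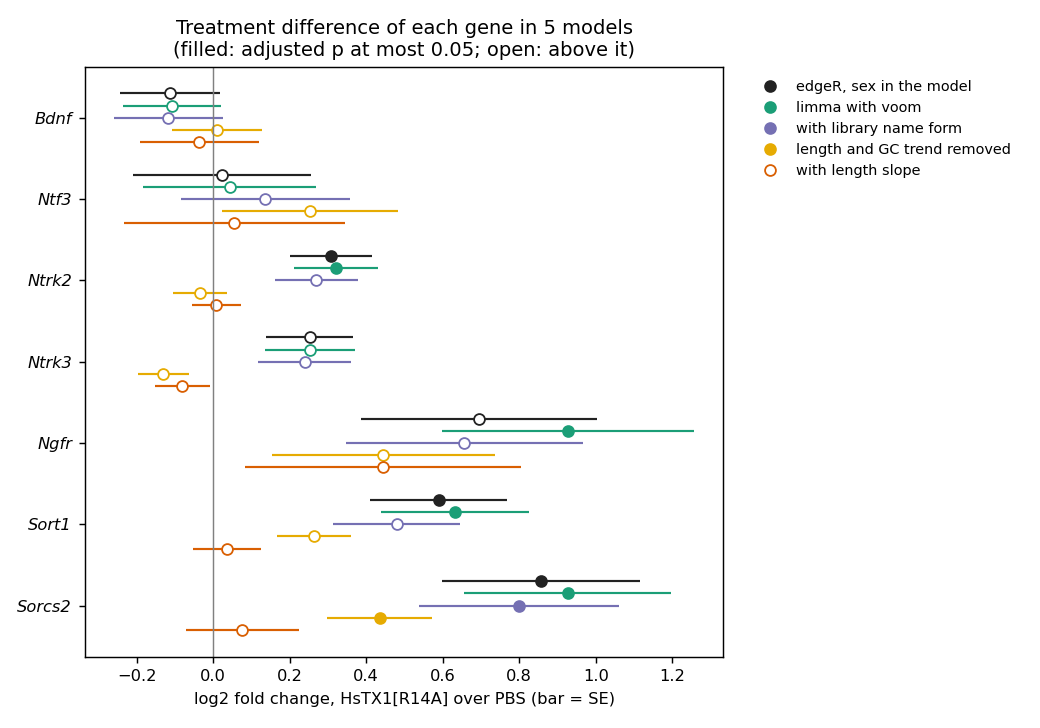
Log2 fold change between treatments, positive where HsTX1[R14A] was higher (x axis, bar = SE), for each gene (y axis) in 5 models of the same 21 mice, with filled points where the adjusted p was at most 0.05. Sort1 and Sorcs2 lie at 0.59 and 0.86 in the model with sex and at 0.037 and 0.076 with the length slope added.

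The plot of level against length slope shows that low values of Ntrk2, Ntrk3, Sort1 and Sorcs2 lay in libraries of low slope. Ngfr was mixed: PBS female 103 was at 3.19 CPM, above the PBS median, and PBS male 82, with a slope of -0.033, at 0.881 CPM. The lowest Ngfr value (0.357 CPM) was that of PBS male 101, with a slope of -0.181. PBS male 90 was also low for Ngfr (1.65 CPM). PBS female 103 and PBS male 90 had the lowest slopes (-0.384 and -0.337), and they had the 2 lowest values of Sort1 (120 and 154 CPM) and of Ntrk3 (25.5 and 27.6 CPM). Sorcs2 was also low in them (10.2 and 12 CPM), with PBS male 101 at 10.9 CPM. HsTX1[R14A] male 93 had the only negative slope of its treatment (-0.142), and it was the lowest treated mouse for Ntrk2, Ntrk3, Sort1 and Sorcs2. Without PBS female 103 and PBS male 90, where 17.7% of all genes were called, Sort1 was at 0.47 (edgeR, adjusted p = 0.0305) and Sorcs2 at 0.72 (edgeR, adjusted p = 0.0399), while Ntrk2 was at 0.24 and lost its call (edgeR, adjusted p = 0.0758). The 3 treated females had slopes between 0.163 and 0.234, above every PBS mouse.

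**Figure D3:**
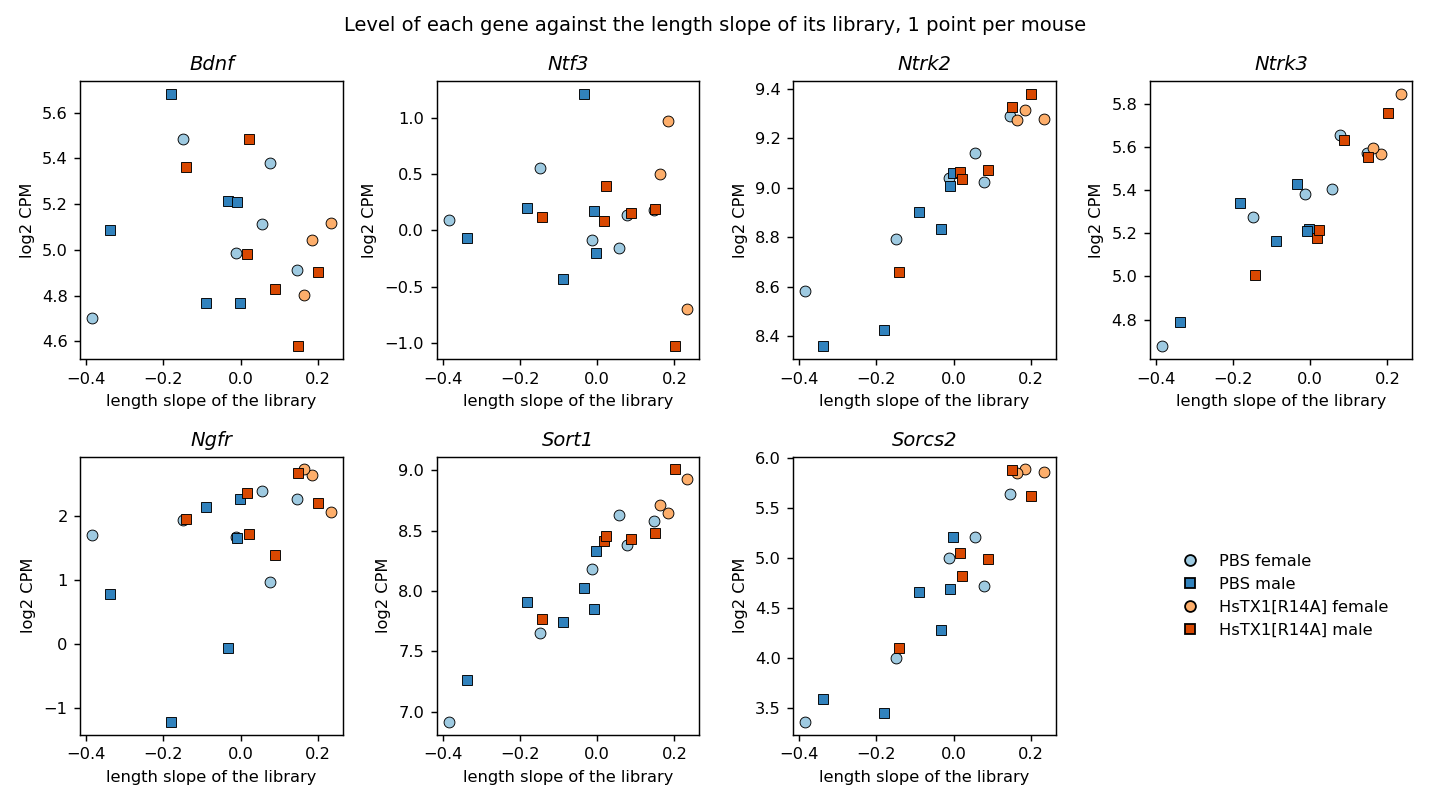
Log2 CPM of each gene (y axis) against the length slope of its library (x axis, change in log2 CPM per doubling of transcript length), with 1 point per mouse and color and shape by group. Ntrk2, Ntrk3, Sort1 and Sorcs2 are low in the 2 libraries of lowest slope (-0.384 and -0.337) and high in those above 0.1 in either treatment, and Bdnf and Ntf3 show no such order. The 2 lowest Ngfr values lie in other libraries, with slopes of -0.181 and -0.033.

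The libraries carried names of 2 forms in the deposited tables, with 10 PBS-treated and 5 HsTX1[R14A]-treated mice in the more common form and 2 and 4 in the other; what the forms stand for is not given in the sources used here. With the form in the model, 12.3% of all genes were called, and Sorcs2 kept its call (0.80; edgeR, adjusted p = 0.0498), whereas Sort1 (0.48; edgeR, adjusted p = 0.0549) and Ntrk2 (0.27; edgeR, adjusted p = 0.0782) lost theirs. Within the more common form alone, the log2 fold changes were 1.02 for Sorcs2, 0.54 for Sort1 and 0.32 for Ntrk2, with edgeR adjusted p of 0.0708, 0.0948 and 0.116. Within the less common form, with 2 PBS-treated mice, they were 0.25, 0.32 and 0.12, and edgeR called 0 genes there or in the more common form, where 532 and 5797 genes had an unadjusted p under 0.05.

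The treatment difference was also fitted in each sex. In females the log2 fold changes were 1.02 for Sorcs2, 0.60 for Sort1 and 0.29 for Ntrk2, and in males they were 0.75, 0.59 and 0.32. The sexes therefore gave differences of the same sign for these receptor genes, and for Ngfr as well (0.63 and 0.75). Neither sex alone gave a call at an adjusted p of at most 0.05 by edgeR over all genes, where 3312 genes in females and 4440 in males had an unadjusted p under 0.05. The test of the difference itself, the interaction of treatment with sex, called 0 genes by edgeR, with 270 genes (1.66%) under an unadjusted p of 0.05, and 250 by limma with voom and 302 by DESeq2. For the 7 genes the interaction, male minus female, ran from -0.50 ± 0.47 (SE) for Ntf3 to 0.12 ± 0.64 for Ngfr on the log2 scale, and with SEs of this size a difference between the sexes was not detectable. Between the sexes themselves, 9 genes (0.0552%) were called and none of the 7, and the widest gap of the group, male minus female, was -0.51 ± 0.26 (SE) for Sorcs2 on the log2 scale (edgeR, adjusted p = 0.446).

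Between mice of the same group, the genes of the system did not vary as a block. Over the 21 pairs of genes, log2 CPM with group means removed was correlated across the 21 mice, with p from 100000 permutations within groups, two-sided, adjusted over the pairs. For 8 pairs the adjusted p of Pearson's r was at most 0.05, 7 of them positive. Ntrk2 and Sorcs2 varied most closely together (Pearson's r = 0.965, Spearman's rho = 0.962, permutation p = 1e-05 for each, the smallest these permutations can give, adjusted p = 0.00021 for each). Without the 2 mice farthest from the median of Ntrk2 r was 0.971, and over all 21 mice with the length slope removed it was 0.798. Sort1 and Ntrk3 (r = 0.850, permutation p = 4e-05, adjusted p = 0.00028, rho = 0.827, permutation p = 2e-05, adjusted p = 0.00021) and Sort1 and Ntrk2 (r = 0.812, permutation p = 3e-05, adjusted p = 0.00028, rho = 0.739, permutation p = 0.00039, adjusted p = 0.00273) were also close, at 0.707 and 0.743 without the 2 mice farthest from the median of Ntrk3 and of Ntrk2, respectively. These did not hold once the length slope was removed (r = 0.139 and r = -0.331). Of the other positive pairs, removing the slope turned Ntrk2 and Ntrk3 from 0.685 to -0.691, Ntrk3 and Sorcs2 from 0.655 to -0.712 and Sort1 and Sorcs2 from 0.826 to -0.113, while Ngfr and Sorcs2 went from 0.560 to 0.847. Bdnf and Ngfr gave the only negative pair among these: r was -0.627 (permutation p = 0.00493, adjusted p = 0.0156), rho was -0.545 (permutation p = 0.0207, adjusted p = 0.0542), and r was -0.478 without the 2 mice farthest from the median of Bdnf and -0.617 with the slope removed. The mice farthest from the median of Ngfr were not left out in turn. With Sorcs2, the r of Bdnf was -0.463 (permutation p = 0.0602, adjusted p = 0.127, rho = -0.436, permutation p = 0.0750, adjusted p = 0.158), and -0.785 with the slope removed. With Ntrk2 the r of Bdnf was -0.425 (permutation p = 0.0961, adjusted p = 0.184, rho = -0.422, permutation p = 0.0856, adjusted p = 0.163), and -0.751 with the slope removed. Ntf3 had no pair with an adjusted p at or under 0.05.

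The genes whose levels followed each member most closely between mice of a group were ranked by Pearson's r over the 21 mice, a description that carries no p since they were picked from the whole table, and all genes of a mouse share 1 library. For Bdnf they were Ccdc176 (0.853), Ptgs2 (0.848) and Msrb3 (0.845); Ptgs2, the cyclooxygenase induced by synaptic activity in neurons, also ranked among the 3 closest with the length slope removed (0.872). For Ntf3 they were Mturn (0.876), Rnf182 (0.830) and Ctnnbip1 (0.816). Ptprf was closest to both Ntrk2 (0.979) and Sorcs2 (0.977), followed by Man2b2 (0.978) and Stat3 (0.975) for Ntrk2 and by Tln2 (0.972) and Polr2a (0.971) for Sorcs2. Sfswap (0.969), Ino80 (0.965) and Ankhd1 (0.960) were closest to Ntrk3, and Aak1 (0.992), Cyfip2 (0.989) and Ptprj (0.987) to Sort1. With the length slope removed, the closest genes became Ass1 (0.936) for Ntrk2, Gm3764 (0.891) for Ntrk3 and Cartpt (0.901) for Sorcs2, while Aak1 (0.938) was still the closest to Sort1.

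The genes closest to Ngfr were Ecel1 (0.927), Chat (0.919), the choline acetyltransferase that makes acetylcholine, and Gbx1 (0.916), a transcription factor of basal forebrain cholinergic neurons. With the length slope removed they were Nts (0.955), Gbx1 (0.942) and Pcdh11x (0.938). Cholinergic genes were then also among those closest to Sorcs2, with Slc18a3, the vesicular acetylcholine transporter gene, at 0.883 and Chat at 0.878. In PBS males 101 and 82, Ngfr was at 0.357 and 0.881 CPM, and the same mice had the lowest Chat (1.79 and 2.51 CPM) and the lowest sums of the 7 cholinergic markers (36.6 and 45.5 CPM against 65.1 CPM or more in the others). The cholinergic sum ran from 36.6 to 113 CPM in PBS-treated and from 69.1 to 120 CPM in HsTX1[R14A]-treated mice. Ache made up the largest part of this sum. It averaged 41.3 CPM of 79.6 CPM in PBS-treated and 55.6 CPM of 95.3 CPM in HsTX1[R14A]-treated mice. Per unit of Chat, Ngfr was at 0.482 ± 0.140 (SD, n = 12) in PBS-treated and 0.667 ± 0.182 (SD, n = 9) in HsTX1[R14A]-treated mice, with HsTX1[R14A] female 71 at 1.13 and the other treated mice at 0.713 or less. In HsTX1[R14A] female 71, Chat was at 5.47 CPM and the cholinergic sum was the highest (120 CPM). Its summed striatum markers were the lowest, at 678 CPM. The next lowest striatum sums were those of PBS males 82 and 101 (1175 and 1358 CPM), with 1647 CPM or more in the other mice. The share of cholinergic or striatal tissue in each library was not measured, and its part in the Ngfr values and in this ratio was not tested.

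**Figure D4:**
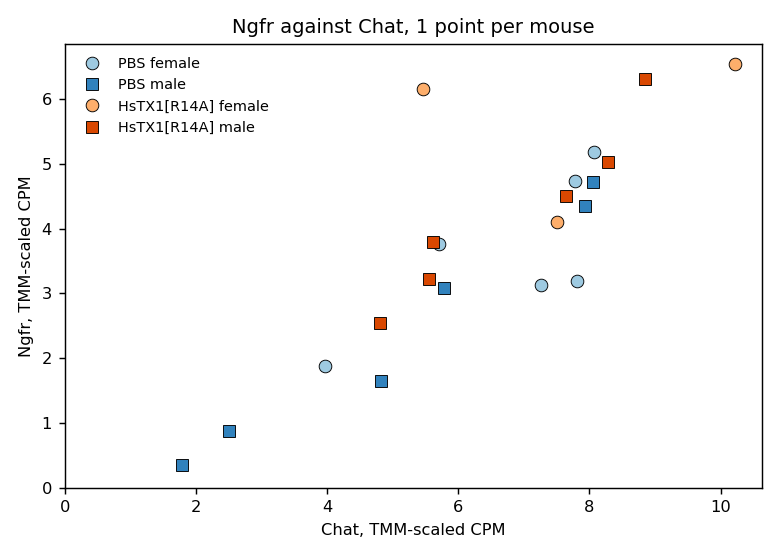
Ngfr (y axis) against Chat (x axis), both in TMM-scaled CPM, with 1 point per mouse and color and shape by group. PBS males 101 and 82 lie lowest on both axes (Chat at 1.79 and 2.51 CPM), and HsTX1[R14A] female 71 lies above the other mice of similar Chat for Ngfr (6.16 CPM).

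Among the remaining ligands and receptors of the family, the sorting receptors gave the smallest p-values. Of the 6 other family genes tested, only Sorl1 rose (16.7% called, beside 31.6% of all genes), with a log2 fold change of 0.50 ± 0.17 (SE; edgeR, adjusted p = 0.0316); it encodes SORLA, a sorting receptor that handles the amyloid precursor protein and TrkB. Sorcs1 and Sorcs3, relatives of Sorcs2, had log2 fold changes of 0.21 (edgeR, adjusted p = 0.0602) and 0.26 (edgeR, adjusted p = 0.509), and Nradd, a relative of p75NTR, was at -0.089 (edgeR, adjusted p = 0.708). Ntf5 was not analysed here. The median log2 fold change of these 6 genes was 0.24, beside -0.013 over all genes tested, and 0.048 after adding the length slope.

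Among 12 genes tested that cleave proneurotrophins or control that cleavage, 2 were higher and none lower (16.7% called, beside 31.6% of all genes). Pcsk1, a proconvertase of the regulated secretory pathway, had a log2 fold change of 0.47 ± 0.13 (SE; edgeR, adjusted p = 0.0198), and Furin, which cleaves proneurotrophins in the Golgi, 0.59 ± 0.19 (SE; edgeR, adjusted p = 0.0286). Pcsk5, another proconvertase, was at 0.28 (edgeR, adjusted p = 0.0769). The list median was 0.11, and adding the length slope gave -0.11.

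Among the 21 adaptors that couple Trk receptors to their cascades, 9 were higher and none lower (42.9% called, beside 31.6% of all genes), with a list median of 0.29. Irs2, an insulin receptor substrate, rose from 11.4 ± 6.22 CPM (SD, n = 12) to 25.6 ± 10.7 CPM (SD, n = 9), with a log2 fold change of 1.27 ± 0.29 (SE; edgeR, adjusted p = 0.0153). Crkl, an SH2 adaptor, rose by 0.35 ± 0.08 (SE; edgeR, adjusted p = 0.0153), and Kidins220, a scaffold that binds Trk receptors and p75NTR, by 0.50 ± 0.14 (SE; edgeR, adjusted p = 0.0195). Adding the length slope put these 3 at 0.30, 0.16 and 0.059, and the list median at -0.024.

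The kinase cascades below the receptors were called about as often as all genes. Of 16 genes of the Ras-MAPK cascade, 2 were higher and 3 lower (31.3% called, beside 31.6% of all genes): the small GTPase genes Rap1a (-0.54 ± 0.13, SE; edgeR, adjusted p = 0.0161) and Rap1b (-0.38 ± 0.11, SE; edgeR, adjusted p = 0.0203) fell, whereas Rps6ka2, a ribosomal S6 kinase of the RSK family, rose (0.59 ± 0.15, SE; edgeR, adjusted p = 0.0172). The other called genes of this cascade, named after their values were seen, were Braf (0.33), a kinase, and Hras (-0.40), a small GTPase. The median of that list was 0.049. Of 13 genes of the PI3K-Akt cascade, 4 were higher and none lower (30.8% called), with a median of 0.18. Gsk3b, a kinase held in check by Akt, rose by 0.33 ± 0.09 (SE; edgeR, adjusted p = 0.0192), the PI3K catalytic subunit gene Pik3cb by 0.27 ± 0.07 (SE; edgeR, adjusted p = 0.0194) and Mtor by 0.64 ± 0.18 (SE; edgeR, adjusted p = 0.0195). The fourth, named after its value was seen, was Pik3cd (0.45). Of 21 partners and effectors of p75NTR, 5 were higher and 3 lower (38.1% called), with a median of 0.085. The zinc-finger factor Prdm4, which binds p75NTR, rose by 0.26 ± 0.07 (SE; edgeR, adjusted p = 0.0210), while the small GTPase gene Rhoa fell by 0.21 on the log2 scale (edgeR, adjusted p = 0.0240). Other called genes, named after their values were seen, were Maged1 (0.31), Traf6 (0.24), Ncstn (0.39), Irak1 (-0.17) and Psenen (-0.33). The median with the length slope added was 0.0096 for the p75NTR partners and closer to 0 for the lists of both kinase cascades.

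The list of CREB, its coactivators (Crebbp, Crtc1 and Crtc2) and genes that CREB or BDNF induces showed the highest median of the pathway lists, at 0.58, and 9 of 20 were higher and none lower (45% called, beside 31.6% of all genes). Dusp4, a phosphatase that switches off MAP kinases, rose from 4.24 ± 1.28 CPM (SD, n = 12) to 6.77 ± 1.78 CPM (SD, n = 9), with a log2 fold change of 0.73 ± 0.16 (SE; edgeR, adjusted p = 0.0151). Spry4, an inhibitor of receptor tyrosine kinase signaling, rose by 0.49 ± 0.12 (SE; edgeR, adjusted p = 0.0163), and the immediate early gene Fos by 0.88 ± 0.22 (SE; edgeR, adjusted p = 0.0170). The other 6 called genes were Crebbp, which is a coactivator and not an induced gene, and Egr2, Vgf, Junb, Egr1 and Fosb, named after their values were seen, with log2 fold changes from 0.45 for Crebbp to 0.98 for Vgf. Arc, which BDNF induces at synapses, was at 124 ± 80.9 and 192 ± 91.6 CPM (edgeR, adjusted p = 0.133), and Creb1 itself was at -0.015 (edgeR, adjusted p = 0.844); both were also named after their values were seen. Adding the length slope put the list median at 0.092, and Dusp4, Spry4 and Fos were at 0.32, 0.21 and 0.52, with edgeR adjusted p of 0.36 or more. Bdnf, a target of CREB itself, was at -0.11 as given above.

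**Figure D5:**
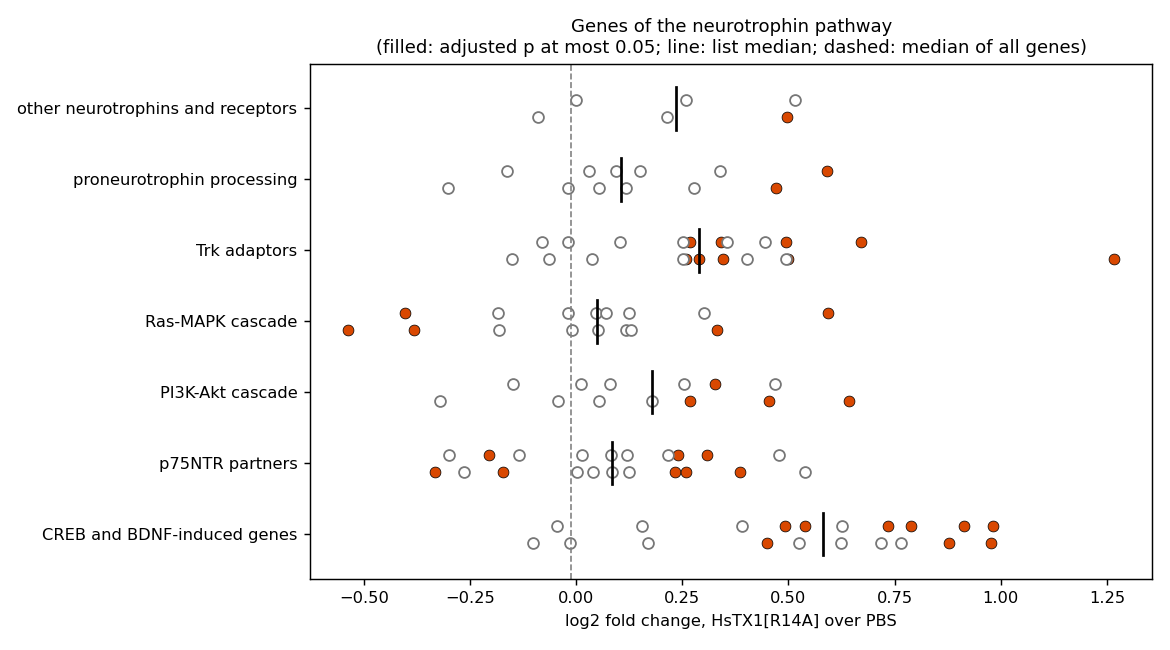
Log2 fold change between treatments, positive where HsTX1[R14A] was higher (x axis), of each gene tested in the 7 pathway lists (y axis), with filled points where the edgeR adjusted p was at most 0.05, a bar at the list median and a dashed line at the median of all genes (-0.013). The list of CREB, its coactivators and induced genes has its median at 0.58 and Irs2, among the Trk adaptors, lies farthest to the right at 1.27.

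Marker genes of brain cell types and regions were read beside these values. Neurons, astrocytes and oligodendrocytes all gave abundant markers. Markers of regions were uneven for RNA described as whole brain. The cerebellum genes Gabra6 and Pcp2, named after their values were seen, averaged 1.70 ± 4.32 and 0.840 ± 1.79 CPM (SD) in PBS-treated mice. The striatum sum was 678 CPM in HsTX1[R14A] female 71, 1175 and 1358 CPM in PBS males 82 and 101, and 1647 CPM or more in the other mice. The share of each region in each library was not measured. The summed level of every list overlapped between treatments. Over all genes tested, 31.6% were called, 15.5% higher and 16.1% lower. The share called was 60% for oligodendrocyte and 40% for astrocyte markers. It was 33.3% for Schwann cell markers, 30% for neuron, microglia and mural markers, 20% for endothelial and hippocampal ones, and 14.3% for cholinergic ones. Of 10 oligodendrocyte markers, 6 were lower and none higher (Mbp -0.40, called), and their sum ran from 4518 to 6917 CPM in PBS-treated and from 3432 to 5049 CPM in HsTX1[R14A]-treated mice. Of 10 astrocyte markers 4 were lower (Slc1a2 0.32 and Aldoc -0.20, the latter called), with sums from 3413 to 5087 and from 3413 to 5128 CPM. Of 10 microglia markers 3 were lower (P2ry12 -0.65, called), with sums from 419 to 603 and from 355 to 527 CPM. Of 10 neuron markers 3 were higher (Snap25 -0.12 and Map2 0.044, neither called), with sums from 6277 to 8942 and from 7248 to 10339 CPM. Higher calls were also made for 1 of 7 cholinergic markers (Ache 0.48, called; Slc5a7 0.041, not called), 2 of 10 endothelial (Flt1 0.64, called; Slco1a4 0.13, not called), 3 of 10 mural (Rgs5 -0.16 and Vtn 0.042, neither called) and 2 of 10 hippocampal markers (Nptx1 0.59, called; Zbtb20 0.37, not called). Of 6 Schwann cell markers, which stand for the other main source of p75NTR, 1 was higher and 1 lower (Pmp22 -0.31, called; Sox10 0.58, not called). No marker was called among those of meningeal fibroblasts (Pdgfra 0.097 and Igf2 -0.19), choroid plexus (Ttr -0.59 and Kl -0.058), cerebellum (Calb1 -0.19 and Zic1 -0.14), striatum (Ppp1r1b -0.11 and Penk 0.051) and hypothalamus (Avp -0.055 and Oxt -0.77) or the erythrocyte genes (Hba-a1 0.30 and Hbb-bs 0.63). Unlike Calb1 and Zic1, 8 of the 10 cerebellum markers had positive log2 fold changes, with a list median of 0.88. The cerebellum sum was 999 CPM in HsTX1[R14A] male 74 and at most 478 CPM in the other mice. Called markers outside the 2 most abundant of each list, named after their values were seen, were Eno2, Nefm and Syt1 of neurons, Kdr of endothelium, Notch3, Cspg4 and Abcc9 of mural cells, Wfs1 of hippocampus and Egr2 of Schwann cells, all higher, and S100b, Gfap and Aqp4 of astrocytes, C1qb and Aif1 of microglia, and Opalin, Mobp, Mog, Ermn and Ugt8a of oligodendrocytes, all lower. With the length slope added, no marker was called. List medians went from -0.35 to -0.24 for oligodendrocyte, from -0.13 to -0.16 for astrocyte and from -0.22 to -0.073 for microglia markers. They went from 0.12 to 0.049 for neuron and from 0.29 to -0.0026 for endothelial markers. Mural ones went from 0.20 to 0.044, hippocampal ones from 0.14 to -0.25 and cholinergic ones from 0.31 to 0.23. The cerebellum median was then 0.89. The part of the marker shifts in the levels of the receptor genes was not tested.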

How the data were processed

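Brain RNA of 21 SAMP8 mice was sequenced. The authors used STAR (on GRCm38) and Salmon, per the labels without versions, and deposited estimated counts for 16318 genes without normalization. The labels and the study's methods name different library kits. The authors' log2 fold changes, p-values and FDR, and 53 per-sample columns of CPM or of other libraries, were not used. Estimated counts were rounded to whole numbers (90.5% lay within 0.01 of one). Genes passing filterByExpr by group (16303) were TMM-scaled and entered the quasi-likelihood test of edgeR 4.0.16, sex in the model, in R 4.3.3, with Benjamini-Hochberg adjustment over all of them at 0.05. A prior count of 2 was used for log2 CPM. The procedure was tested on simulated data. The members, lists and tests were chosen with earlier results of these data known. Lists are described by counts and medians, without set tests.

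The genes named were the 7 members, the 3 genes with the smallest p of each pathway list and every other family gene, the 2 most abundant markers of each list, and the 3 genes most like each member with mean log2 CPM at or above 1. Some genes that this rule names are not reported here. Alternatives were limma 3.58.1 with voom, DESeq2 1.42.0, RLE scaling, no filter or a minimum of 10 counts per mouse, the name form of the libraries added or sex dropped, 1 surrogate variable from sva 3.50.0, the length slope as covariate, each library's loess trend on length and GC removed, subsets of mice, and each mouse left out. Removing the 2 libraries of lowest slope, and the slope from the correlations, was chosen after seeing the data. Lengths came from GENCODE M21 (found for 99.5% of the genes tested). The labels call each library a separate mouse, and over 48 pairs of a group the mean chi-square per gene was at least 7.58.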

Additional observations from a re-analysis of the deposited data

Results flagged for a closer look

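Each of the 7 genes was checked in the 3 groups of 6 mice for a mouse far from the others, by the gap to its neighbor as a share of the group's range; chance marks about 1 in 20 groups. Of these 21 groups 2 stood out, both for Ntf3. PBS male 82 was at 2.25 CPM (51 counts), with the next PBS male at 1.07 CPM, so that the gap took up 0.744 of the range. HsTX1[R14A] male 81 was at 0.415 CPM (7 counts), with the next male of that group at 0.984 CPM and a gap of 0.689 of the range. PBS male 82 was also 1 of the 2 mice with the lowest cholinergic markers.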

How the results depend on the processing

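The number of genes called between treatments, 5144 with edgeR, was within 1.5 times of that with limma with voom, DESeq2, RLE scaling and both other filters. It was 2984 without the sex term, 1999 with the library name form, 0 with the length slope, 2499 with the length and GC trend removed, 1104 with 1 surrogate variable, 0 in either name form alone, 2887 without the 2 libraries of lowest slope, and from 2289 (without PBS male 90) to 6614 (without HsTX1[R14A] male 93) with 1 mouse left out. Of the 7 genes, 3 were called higher; this was 4 with limma with voom (Ngfr added), 2 without the sex term (edgeR, adjusted p = 0.0733 for Ntrk2), 2 without the 2 libraries of lowest slope, 1 with the name form, 0 with the length slope, 1 with the trend removed, 0 with the surrogate variable, 0 in either form alone, and 2 to 4 with 1 mouse left out. The pathway lists held 32 higher and 6 lower calls. Without the sex term these were 21 and 2, with the name form 15 and 1, with the trend removed 19 and 3, with the surrogate variable 9 and 1, and with the length slope or in the more common form alone 0 and 0.

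The sign turned for Bdnf with the trend removed (0.011) and in the less common form (0.23), for Ntf3 in that form (-0.12) and without the 2 libraries of lowest slope (-0.0021), for Ntrk2 with the trend removed (-0.035), for Ntrk3 with the length slope (-0.080) and with the trend removed (-0.13), and for Ngfr in the less common form (-0.22). None of these turned values passed the test, and the cause was not tested. With 1 mouse left out, Ntf3 ran from -0.16 to 0.21. The interaction ran from -0.075 to 0.16 for Bdnf, -0.043 to 0.10 for Ntrk2, -0.11 to 0.40 for Ngfr and -0.15 to 0.14 for Sort1. The sex difference of Ntf3 was -0.10, and 0.12 in PBS mice only. Levels per kilobase with the other length moved by more than 1 SD for 3 genes.

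No paired analysis was made, because each mouse received 1 treatment. Treatment was assigned within cages, but the cage of each mouse is not given in the sources used here and was not in the model. Ntf3 had fewer than 10 counts in 1 mouse and gave no value under that filter. The p-values measure the spread between mice, and the treated females number 3.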
